A study of Mus musculus with 10 samples.

Results

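The effect of long-term culture was examined in 4 mouse lines, each sequenced at passage 5 and again at passage 25. These 8 libraries, of the 10 in the series, were chosen by the passage given in the sample labels. Passage 25 was compared with passage 5 within each line. All lines came from embryonic fibroblasts (MEF) of a cross of mf1 and 129 mice. The fibroblasts carried an Oct4/GFP reporter, which makes cells with an active *Oct4* locus fluoresce, and were reprogrammed with retroviruses encoding Oct4, Sox2, Klf4 and c-Myc. One was the 'control' line of induced pluripotent stem (iPS) cells. Clones 1 and 2 are iPS lines called 'rNetrin-1-derived', from cells reprogrammed with the recombinant ligand Netrin-1. The last was a pre-iPS line, which stopped partway through reprogramming and had not reactivated *Oct4*. The MEF libraries, at passages 2 and 4, served here only as a reference level. Each line is a single clone with 1 library per passage, so the 4 lines are the replicates and no line has a replicate of its own. All late-passage libraries differ from all early ones by passage and by whatever else differed between the cultures and harvests, and these cannot be told apart. The labels give serum replacement with LIF as the medium. The study's general methods name gelatin or irradiated MEF as the support, and also such a medium with the inhibitors called 2i.

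Serial passage selects, over many divisions, the cells of a culture that divide and attach best, and pluripotent cultures are known to shift in signalling, metabolism and imprinted gene expression along the way. Naive pluripotent cells are held by LIF signalling and a circuit of transcription factors, and in such media a few cells continually leave that state for epithelial, endodermal or trophoblast-like fates. One source of their energy is glycolysis. Its enzymes are also targets of the hypoxia-inducible factors (HIF), which prolyl hydroxylases mark for destruction when oxygen is available.

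The deposited values are reads per gene after adjustment by the authors to 1 library size. There were 38110410 to 46357031 reads on genes in each of the 8 libraries, and 1 read was worth 0.888 to 1.04 of the deposited unit. *Nanog*, a core pluripotency factor, separated the iPS lines from pre-iPS and MEF at both passages. It had values of 2489 to 7441 in the iPS libraries, 311 and 349 in the pre-iPS libraries, and 34.5 and 36.9 in MEF. The summed value of 24 naive pluripotency markers did not set pre-iPS apart. It was 139951 and 166659 in pre-iPS, 109350 to 180211 in the iPS libraries, and 7450 and 6972 in MEF. The summed value of 30 fibroblast markers was 111482 to 181627 at passage 5 and 121913 to 176861 at passage 25, which is 2.01 to 3.27% and 2.20 to 3.19% of the mean MEF sum. In pre-iPS this sum was 170692 and 176861, within the 111482 to 181627 of the iPS libraries. In these bulk samples fewer cells of a type and less RNA per cell cannot be told apart.

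The test took in 17075 genes, those that reached a value of 10 in 2 or more libraries, and 1869 of them (10.9%) differed between passages 25 and 5 over the 4 lines at an adjusted p under 0.05 (limma with the line as a block, Benjamini-Hochberg adjustment). Of these, 566 genes (3.31%) were higher at passage 25 and 1303 (7.63%) were lower. Changes were mostly small, with a median absolute log2 fold change of 0.47 among the genes called. Only 68 genes (0.398%) rose and 221 (1.29%) fell by at least 2-fold. The direction was the same in all 4 lines for 1861 of the 1869 genes called, while 35.9% of all genes tested moved one way in all 4 lines. The test itself favours genes whose lines agree, so this agreement is no separate support for the calls. After quantile normalization 928 genes were called higher and 1118 lower, so that 45.4% of the calls were rises, against 30.3% with the values as deposited. Log2 fold changes here are differences of log2(value + 1), which understate the change of genes with few reads. Nothing in the labels gives separate cultures beyond the lines, and an exact paired test over 4 lines cannot give a two-sided p below 0.125 for a single gene.

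Leaving out clone 1 lowered the number of calls most. Without it 242 genes were called, against 1723 without the control line, 1075 without clone 2 and 446 without pre-iPS. Clone 1 was not the line that stood apart. Its change differed from that of the other 3 lines for 201 genes at an unadjusted limma p under 0.05, fewer than for any other line. Without the line as a block, 8 genes were called (1 higher and 7 lower). In the 3 iPS lines, 548 genes were called (3.21%), 105 higher (0.615%) and 443 lower (2.59%). This fit took in all 8 libraries, but the residual spread of a gene came from the 6 iPS libraries, as the pre-iPS pair was fitted exactly. Of these 548 genes, 523 were also called over the 4 lines, and both tests share the 6 iPS libraries. No gene was called in limma for a passage change that differed between pre-iPS and the iPS lines, with 568 genes (3.33%) at an unadjusted p under 0.05. By edgeR on the recovered reads, again 0 genes were called, with 441 at an unadjusted p under 0.05. These tests set 1 pre-iPS pair against 3 iPS pairs, so 0 calls do not show that the lines changed alike.

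The genes of the hypoxia response and glycolysis fell together in all 4 lines. Of 32 such genes, 30 fell and 0 rose, where 7.63% of all genes tested were called lower. The list was chosen with earlier results of these data known, so its count is a description. The median log2 fold change of the list was -0.48, against -0.01 over all genes tested. It was -0.66 in the control line, -0.55 in clone 1, -0.56 in clone 2 and -0.41 in pre-iPS. Between the MEF passages it was -0.02. In 20 of the 32 genes every passage 25 value lay below every passage 5 value, as it did for 4.02% of all genes tested. In the 3 iPS lines, 21 of the 32 genes were called lower (2.59% of all genes). The summed value of the list was 652335 to 736947 at passage 5 and 487254 to 531261 at passage 25. The number of members called lower was 26 without the control line, 13 without clone 1, 26 without clone 2 and 19 without pre-iPS, and the median stayed between -0.52 and -0.44 in these fits. With eBayes run robustly and without a trend 10 members were called lower, and without the line as a block 2.

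**Figure D1:**
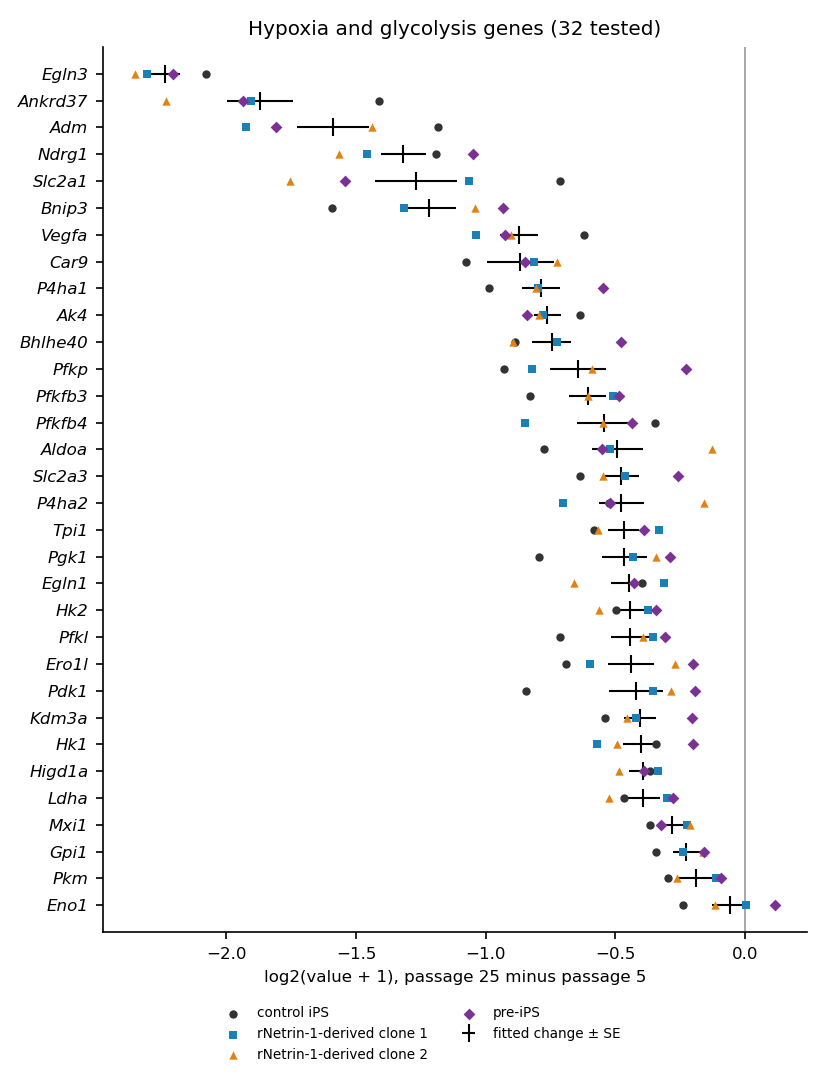
Change between passages for each of the 32 hypoxia and glycolysis genes tested. The horizontal axis is log2(value + 1) at passage 25 minus passage 5. Coloured points are the 4 lines, and the black marks are the fitted change with its standard error. *Egln3* lies furthest to the left, at -2.35 to -2.08 in the 4 lines, and the lines spread around 0 only for *Eno1*.

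*Egln3*, which encodes the oxygen-sensing prolyl hydroxylase PHD3 and is itself a HIF target, fell most within this list. Its values at passage 5 were 6433 in the control line, 18553 in clone 1, 13692 in clone 2 and 11538 in pre-iPS. At passage 25 they were 1523, 3744, 2678 and 2498 in the same order, so that all late values lay below all early ones. The log2 fold change was -2.24 ± 0.06 (SE, n = 4 lines, limma adjusted p = 1.92e-05), a 4.71-fold fall. *Ankrd37*, an ankyrin-repeat gene known as a HIF target, went from 1318, 1882, 1836 and 2135 to 494, 502, 390 and 558, with a log2 fold change of -1.87 ± 0.13. *Adm*, which encodes the vasodilator peptide adrenomedullin, went from 605, 973, 817 and 598 to 266, 256, 301 and 170, a log2 fold change of -1.59 ± 0.14. Here too the passages did not overlap.

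Transport and mitochondrial genes of the list followed. *Slc2a1*, the glucose transporter GLUT1, was read at 70871, 112149, 92598 and 60156 at passage 5 and at 43221, 53614, 27416 and 20622 at passage 25. Its log2 fold change was -1.27 ± 0.16, and clone 2 and pre-iPS fell further than the other lines. *Bnip3*, a mitophagy receptor, went from 8554, 7834, 7195 and 5749 to 2833, 3151, 3498 and 3010, a log2 fold change of -1.22 ± 0.10. *Ndrg1* fell by 1.32 on the log2 scale, the angiogenic ligand *Vegfa* by 0.87, and *Car9*, which encodes carbonic anhydrase IX, by 0.87. The glycolytic genes fell less. The hexokinase gene *Hk2* had a log2 fold change of -0.44 ± 0.05, *Aldoa* (aldolase A) of -0.49 ± 0.10, *Pgk1* (phosphoglycerate kinase) of -0.46 ± 0.09 and *Ldha* (lactate dehydrogenase A) of -0.39 ± 0.06. *Pfkfb3*, which makes the allosteric activator of phosphofructokinase, had a log2 fold change of -0.61 ± 0.07. *Pdk1*, which holds pyruvate back from the mitochondria, had one of -0.42 ± 0.10. Of the list, *Pkm*, with a log2 fold change of -0.19 (limma adjusted p = 0.11), was not called. Nor was *Eno1*, at -0.06 (limma adjusted p = 0.62).

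Further genes of the pathway were listed after the first values were seen, and their counts are descriptions. Over all genes tested, 7.63% were called lower and 3.31% higher. Of 14 glycolytic enzymes, some of them also in the list above, 10 were called lower, 2 without clone 1, 5 without pre-iPS and 0 with limma's robust eBayes (11 at an unadjusted p under 0.05), at medians of -0.38, -0.45 and -0.40. *Pgam1* fell by 0.32 to 0.34 on the log2 scale in each line. *Slc16a3*, the lactate exporter MCT4, went from 13463, 13577, 12475 and 12442 to 5136, 6683, 5409 and 6283, a log2 fold change of -1.15 ± 0.07. Of 10 HIF subunits and regulators, 1 was called higher and 4 lower, of which *Egln1* and *Egln3* are already in the first list. *Hif1a*, which encodes the main oxygen-regulated subunit, rose from 4801, 3828, 4316 and 2694 to 6293, 5146, 6212 and 4682, a log2 fold change of 0.53 ± 0.07 (limma adjusted p = 0.0078). *Hif3a*, which encodes a subunit that can oppose the others, fell by 0.82, the hydroxylase gene *Egln1* by 0.45 and *Vhl*, which encodes the ubiquitin ligase component that binds hydroxylated HIF, by 0.27. *Epas1* (HIF2A) was at -0.48 (limma adjusted p = 0.086), and in clone 1 it was 7008 and 7014. Of 78 oxidative phosphorylation subunits encoded in the nucleus, 1 was called higher and 1 lower, with a median log2 fold change of -0.01.

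The promoters of these genes were read for the hypoxia element, the letters ACGTG on either strand, which hypoxia-inducible factors are known to bind. In the 250 bases before the start, 12 of the 26 fallen members with a RefSeq window (46.2%) held it, against 20.7% of 12309 genes tested, 19.4% of genes called lower and 22.3% of genes called higher. The GC box GGGCGG was also more frequent, in 80.8% of the 26 windows against 55.1% of genes tested. These are letter matches and not sites of binding, and no test was made. The list was made of hypoxia response and glycolysis genes, many known as HIF targets, so the share describes the list and not its fall. With 30 of 32 members called lower, too few others were left to compare. Of the 6 genes of this list that fell by at least 2-fold, *Ndrg1* had no window and was not read. The windows of the 4 with the element are not all alike in its place, as the sequences show. They are given 5′ to 3′ on the gene's strand from RefSeq (GRCm38.p6, the same assembly as mm10), with the element in capitals, and *Adm* is shown as a gene without it.
Egln3, chr12:54203875-54204124, minus strand, element at position -229 from the start: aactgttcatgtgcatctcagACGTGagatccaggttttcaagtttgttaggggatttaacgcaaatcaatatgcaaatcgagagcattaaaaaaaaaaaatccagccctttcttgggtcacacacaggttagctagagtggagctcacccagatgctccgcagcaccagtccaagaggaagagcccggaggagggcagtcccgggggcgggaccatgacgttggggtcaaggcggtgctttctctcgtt
Ankrd37, chr8:45999851-46000100, minus strand, elements at -241 and -6: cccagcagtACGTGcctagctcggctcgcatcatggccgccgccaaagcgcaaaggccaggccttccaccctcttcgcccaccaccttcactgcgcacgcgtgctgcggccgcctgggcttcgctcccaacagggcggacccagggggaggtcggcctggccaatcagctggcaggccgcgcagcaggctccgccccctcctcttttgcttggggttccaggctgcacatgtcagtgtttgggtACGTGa
Bnip3, chr7:138909507-138909756, minus strand, the element read on both strands from -108 within the E-box CACGTG: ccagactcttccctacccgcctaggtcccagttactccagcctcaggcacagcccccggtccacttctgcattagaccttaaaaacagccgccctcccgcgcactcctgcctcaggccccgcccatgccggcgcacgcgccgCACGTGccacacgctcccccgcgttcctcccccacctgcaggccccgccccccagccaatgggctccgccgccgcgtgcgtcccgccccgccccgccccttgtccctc
Slc2a1, chr4:119108495-119108744, plus strand, element at -36: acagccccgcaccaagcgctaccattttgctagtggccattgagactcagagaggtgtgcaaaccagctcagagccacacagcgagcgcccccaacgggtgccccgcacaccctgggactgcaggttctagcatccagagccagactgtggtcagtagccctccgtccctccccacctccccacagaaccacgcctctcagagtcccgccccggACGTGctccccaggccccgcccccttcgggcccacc
Adm, chr7:110627407-110627656, plus strand, no match: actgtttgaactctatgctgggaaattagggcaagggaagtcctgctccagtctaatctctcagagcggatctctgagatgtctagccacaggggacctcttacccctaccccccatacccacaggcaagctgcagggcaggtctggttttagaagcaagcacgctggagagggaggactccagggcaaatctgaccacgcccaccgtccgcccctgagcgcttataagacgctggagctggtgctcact

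**Figure D2:**
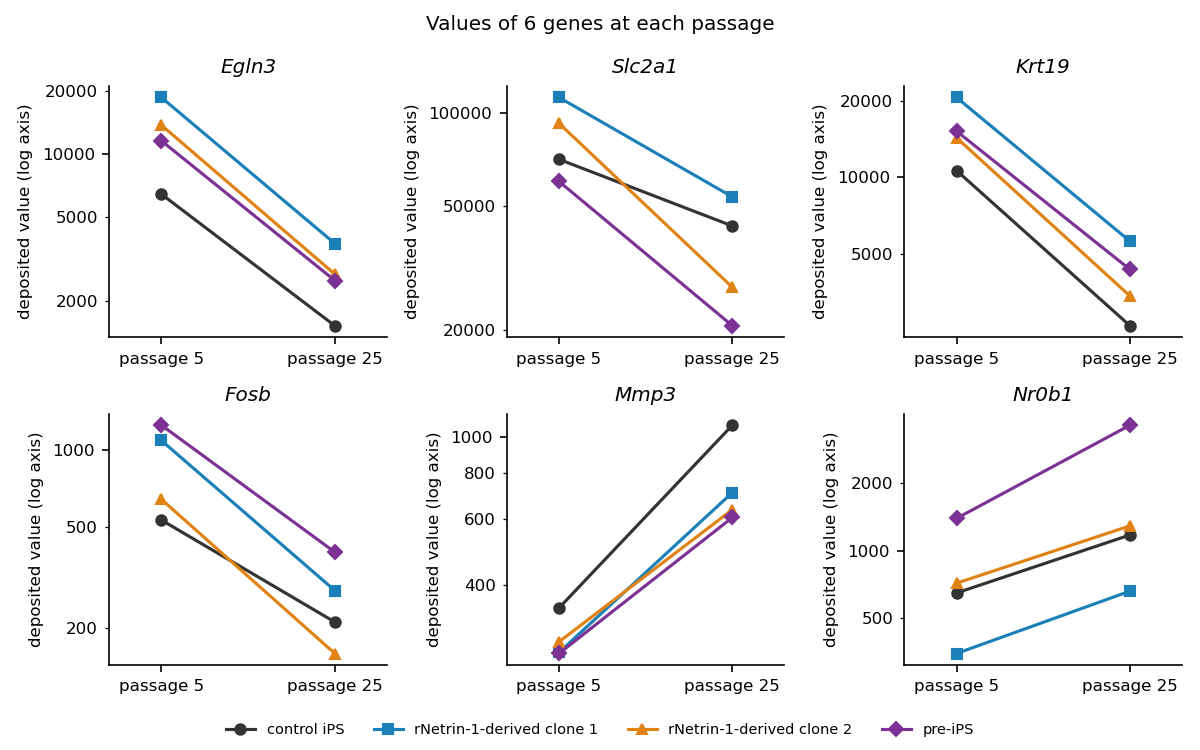
Deposited values of 6 genes at passages 5 and 25. Each line joins the passages of 1 cell line, and the vertical axes are logarithmic. *Egln3*, *Slc2a1*, *Krt19* and *Fosb* were lower at passage 25 in all 4 lines, and *Mmp3* and *Nr0b1* were higher.

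Several of the largest falls over all genes were of genes known from epithelia. The 15 genes with the largest falls, among those with a mean value of at least 50 and 1 direction in all 4 lines, had log2 fold changes of -2.51 to -1.78, and the passages did not overlap for 10 of them. *Ly6d*, a surface antigen of keratinocytes and early B cells (chr15:74762056-74763620), went from 194, 564, 543 and 275 to 22.9, 132, 176 and 26.9, a log2 fold change of -2.51 ± 0.28 (limma adjusted p = 0.0043). *Alox12e*, an epidermal lipoxygenase gene, fell from 101, 121, 119 and 55.1 to 22.9, 13.3, 13.4 and 15.4. *Krt19*, a keratin of simple epithelia (chr11:100140810-100148665), went from 10649, 20727, 14361 and 15247 to 2590, 5590, 3395 and 4324. Its log2 fold change of -1.96 ± 0.06 was among the most even over the lines, from -2.08 to -1.82 (limma adjusted p = 2.41e-05).

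**Figure D3:**
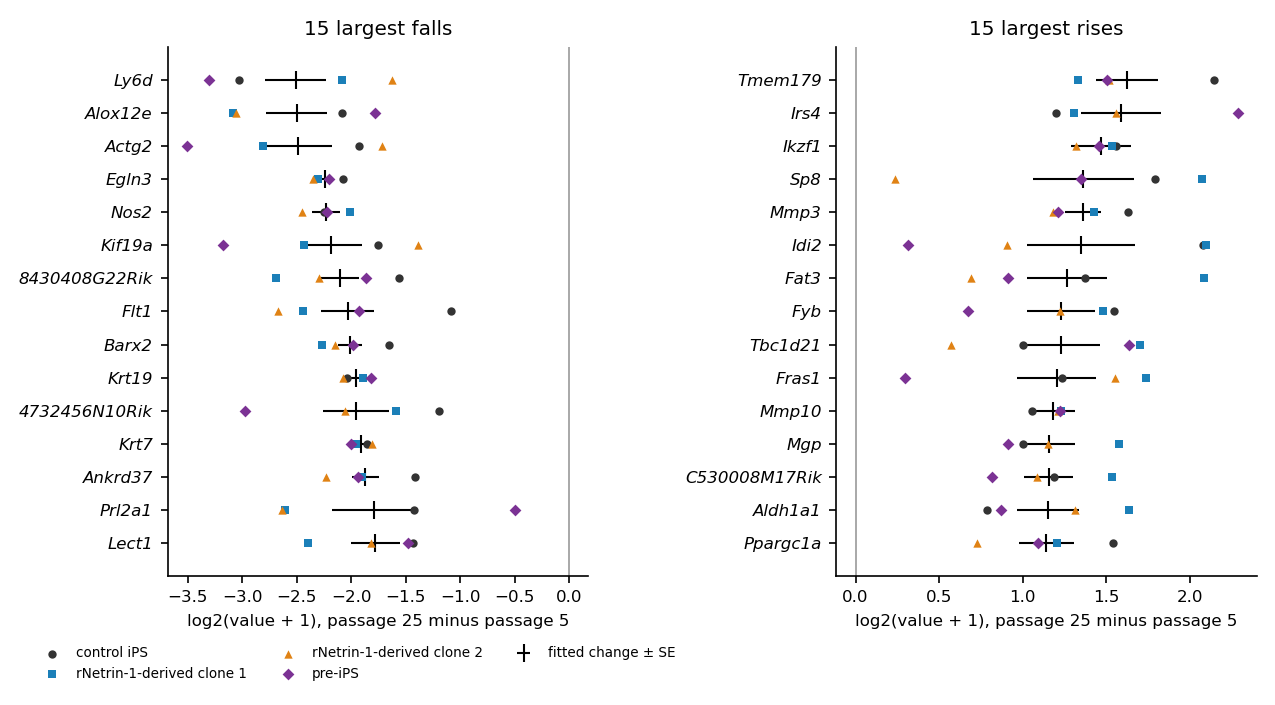
The 15 largest falls and the 15 largest rises among the genes called over the 4 lines. The horizontal axis is log2(value + 1) at passage 25 minus passage 5, coloured points are the 4 lines, and the black marks are the fitted change with its standard error. All points lie on 1 side of 0, and the lines differ most for *Sp8*, *Idi2* and *Prl2a1*.

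The keratins and the genes of stratified epithelium were listed after these genes had been seen, so their counts describe the same pattern. Of 27 keratin genes tested, 11 were called lower, all by at least 2-fold (1.29% of all genes), and 1 was higher. The number called lower was 14 without the control line, 7 without clone 1, 9 without clone 2, 8 without pre-iPS and 6 with eBayes run robustly and without a trend. *Krt7* (-1.91 ± 0.07), *Krt8* (-1.52 ± 0.12) and *Krt18* (-1.38 ± 0.09), keratins of simple epithelia, fell without overlap of the passages. *Krt5*, a keratin of basal stratified cells, fell by 1.60 on the log2 scale, and its partner *Krt14* was at -1.96 ± 0.52 (limma adjusted p = 0.056), with 187 and 234 in the control line where the other lines went from 1327, 843 and 382 to 305, 127 and 37.4. Of 25 genes of stratified epithelium, 18 were called lower and 0 higher, against 7.63 and 3.31% of all genes. The basement membrane genes *Lamb3* (-1.75 ± 0.18) and *Col7a1* (-1.66 ± 0.24), the cross-linking enzyme gene *Tgm1* (-1.27 ± 0.10) and the transcription factor genes *Grhl3* (-1.21 ± 0.09) and *Elf3* (-0.93 ± 0.06) were among them. *Cdh1* and *Epcam*, adhesion genes shared by epithelia and pluripotent cells, had log2 fold changes of -0.16 and -0.11 (limma adjusted p = 0.30 and 0.33). Without clone 1 the count for stratified epithelium was 11 of 25, without clone 2 14, without pre-iPS 12 and with the robust eBayes 10.

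Some other lipid and barrier genes were lower too, though most members of these lists, also chosen after values were seen, were not called. Of 8 lipoxygenase genes 3 were called lower and 5 not, where 7.63% of all genes tested were called lower, and *Alox15*, which acts on arachidonic and linoleic acid, went from 2153, 2581, 2925 and 4595 to 555, 749, 886 and 1636. *Alox12b* had a log2 fold change of -1.70 ± 0.12. Of 11 small proline-rich protein genes 4 were called lower and 7 not, and of 17 claudins 6 were called lower and 11 not. Without clone 1, these counts were 3, 1 and 1 for the lipoxygenases, small proline-rich genes and claudins, and without pre-iPS 3, 1 and 2. The MEF values were near 0 for *Alox12e* (0 and 0) and *Ly6d* (0.0226 and 1.05). The summed keratin value was 40069 to 66793 at passage 5 and 13203 to 21849 at passage 25, against 1758 and 1808 in MEF.

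The rest of the largest falls came from several kinds of genes. *Nos2*, the inducible nitric oxide synthase, went from 306, 251, 547 and 828 to 63.6, 61.6, 99.5 and 177, a log2 fold change of -2.23 ± 0.13. *Flt1*, which encodes a receptor for VEGF, fell by 2.03, less in the control line (-1.09) than in clone 2 (-2.67). *Barx2*, a homeobox gene, and *8430408G22Rik* fell by 2.01 and 2.10. The smooth muscle actin gene *Actg2* fell by 2.49, most in pre-iPS, from 306 to 25.9, and the kinesin gene *Kif19a* fell by 2.19, from 164 to 17.3 in that line. *Lect1* (chondromodulin), *4732456N10Rik* and the placental prolactin-family gene *Prl2a1* complete the 15, with falls of 1.78, 1.95 and 1.79.

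Genes of the immediate early response, which growth factors and handling switch on within minutes, were also lower. Of 20 such genes, 10 were called lower and 1 higher, against 7.63 and 3.31% of all genes. *Fosb*, an AP-1 subunit gene, went from 531, 1087, 640 and 1248 to 212, 281, 159 and 398, a log2 fold change of -1.73 ± 0.13 (limma adjusted p = 0.0013). *Fos* fell by 1.35, and *Dusp1*, a phosphatase gene that ends MAP kinase signals, and *Btg2* fell by 0.73 each. *Jun* was at -0.11 (limma adjusted p = 0.48), and *Atf3* was the member called higher, at 0.48 (limma adjusted p = 0.0487). It was not called with a pseudocount of 5 or without a filter. Fits without clone 1, clone 2 or pre-iPS called 0 members higher, and the fit without the control line called 1. Without clone 1, 4 of the 20 members were called lower, and without pre-iPS 5.

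Some markers of the extraembryonic lineages fell. Of 12 trophoblast genes 4 were called lower and 0 higher, against 7.63 and 3.31% of all genes: *Krt7*, *Krt8*, *Hand1*, a transcription factor gene of giant cells, at -1.40 ± 0.23, and *Elf5* at -0.48 ± 0.11. The first pair are the keratins counted above, and 2 of the 12 were called lower without clone 1 or without pre-iPS. The summed trophoblast value was 19619 to 28634 at passage 5 and 10708 to 14665 at passage 25. Of 18 primitive endoderm genes 5 were lower and 2 higher, and 3 were lower without the control line, 1 without clone 1 and 2 without clone 2. *Srgn* (-1.29 ± 0.21), the matrix gene *Sparc* (-1.01 ± 0.06), *Sox7* (-0.90 ± 0.22) and *Col4a1* (-0.77 ± 0.14) fell, whereas the receptor gene *Pdgfra* and the adaptor gene *Dab2* rose by 0.51 and 0.53. *Gata6*, a defining factor of the lineage, was at -1.10 and -0.80 in the control line and clone 1 and at 0.39 and 0.11 in clone 2 and pre-iPS. Its members thus moved both ways, and *Sparc*, *Col4a1*, *Pdgfra* and *Dab2* are also high in MEF.

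The largest rises were smaller than the largest falls. The 15 genes chosen by the same rule rose by 1.14 to 1.63 on the log2 scale, without overlap of the passages for 7 of them (2.62% of all genes tested lay wholly above). *Tmem179*, a transmembrane protein gene, had 57.0, 61.3, 33.7 and 53.1 at passage 5 and 256, 156, 98.6 and 153 at passage 25, a log2 fold change of 1.63 ± 0.18 (limma adjusted p = 0.0045). *Irs4*, an insulin receptor substrate gene on the X chromosome, rose by 1.59, from 50.3, 23.1, 25.8 and 10.2 to 117, 58.5, 78.0 and 53.8. *Ikzf1*, the lymphoid factor Ikaros, rose by 1.47 and was more even, at 1.32 to 1.56 in the 4 lines. *Sp8*, a zinc-finger gene of limb and brain patterning, rose from 38.7, 38.2, 78.4 and 52.0 to 137, 164, 92.3 and 134, least in clone 2.

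Matrix metalloproteinase genes stood among the rises, and were listed for that reason. Of 18 tested, 6 were called higher and 1 lower (3.31 and 7.63% of all genes), and without clone 1 or without pre-iPS 2 were called higher. *Mmp3* (stromelysin-1) went from 346, 263, 281 and 261 to 1075, 708, 637 and 607, a log2 fold change of 1.36 ± 0.11 (limma adjusted p = 0.0013). *Mmp10* had 101, 79.9, 72.4 and 104 and then 211, 189, 169 and 245. *Mmp1a*, which did not meet the rule for the 15 largest rises, rose by 1.68, *Mmp2* by 0.53 and *Mmp9* by 0.46. *Mmp3* was at 1831 and 1912 in MEF and *Mmp2* at 43175 and 42490, whereas *Mmp10* was at 11.9 and 12.7 and *Mmp9* was higher in the 8 libraries (534 to 1338) than in the first MEF library (173). Retinal dehydrogenase *Aldh1a1* rose by 1.15, the mitochondrial coactivator gene *Ppargc1a* by 1.14, the matrix genes *Mgp* and *Fras1* by 1.16 and 1.20, and the protocadherin gene *Fat3* by 1.27. *Idi2*, *Fyb*, *Tbc1d21* and *C530008M17Rik* rose by 1.16 to 1.35. For *Idi2* the rise was 2.08 and 2.10 in the control line and clone 1, and 0.31 in pre-iPS.

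Fibroblast markers did not move together with passage. Of 30 such genes, 4 were called lower and 2 higher (7.63 and 3.31% of all genes), and the median log2 fold change was -0.06. Without the control line 9 were called lower, and without clone 1 2. The contractile genes *Acta2* (-1.40 ± 0.11) and *Tagln* (-1.33 ± 0.18) and the collagen cross-linking genes *Loxl2* and *Lox* fell, and *Mmp2* and *Col6a3* rose by 0.53 and 0.56. The median was 0.43 in the control line, with 7 of 30 genes lower, and -0.24, -0.29 and -0.08 in clone 1, clone 2 and pre-iPS. The part of feeder cells in the passage changes was not tested.

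Of 24 naive pluripotency markers 1 rose and 1 fell over the 4 lines (3.31 and 7.63% of all genes). The lines moved in both directions, with 20 of the 24 lower at passage 25 in the control line, 17 in clone 1, 5 in clone 2 and 8 in pre-iPS. The nuclear receptor gene *Nr0b1*, an X-linked member of the pluripotency network, went from 649, 349, 717 and 1393 to 1175, 661, 1290 and 3620, a log2 fold change of 1.00 ± 0.10 (limma adjusted p = 0.0033), and it was highest in pre-iPS at both passages. *Prdm14*, a repressor gene that guards naive identity, went from 347, 184, 615 and 14.3 to 123, 84.2, 462 and 7.68, a log2 fold change of -0.96 ± 0.20. *Nanog*, *Esrrb* and *Zfp42* had log2 fold changes of -0.22, -0.54 and -0.32, with limma adjusted p-values of 0.26, 0.19 and 0.26. Without clone 2, 5 of the 24 genes were called lower and 1 higher.

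Among the markers of the primed epiblast, 4 of 19 rose and 5 fell, where 3.31 and 7.63% of all genes were called. Without clone 1 the counts were 0 and 2, and without any other line 2 rose and 3 or 4 fell. *Sox3*, a neural and epiblast factor gene, rose by 0.99 and *Fgf15* by 0.88. *Lef1*, a partner of beta-catenin, fell by 1.25, *Fgf5* by 0.76 and *Pou3f1* (Oct6) by 0.74, each in all 4 lines. The 5 that fell include *Krt18*, one of the keratins counted above. *Otx2* was at -1.66 and -0.98 in the control line and clone 1, at 0.32 in clone 2 and near absent from pre-iPS (6.12 and 3.84). Of 20 germ layer regulators 2 fell and 1 rose (0 in limma without clone 1, with 5 at an unadjusted p under 0.05), *Eomes* falling by 1.02. The Nodal inhibitor gene *Lefty1* rose from 3875, 1432, 1824 and 100 to 6435, 2714, 4665 and 244, a log2 fold change of 1.07 ± 0.11. *Id1*, a BMP target, fell by 0.75. In all, 2 of 24 Nodal, BMP and Wnt targets rose and 3 fell, and 1 rose and 0 fell without clone 1. Of 16 genes of the LIF and Stat3 pathway 4 fell and 0 rose (2 fell without clone 1 or pre-iPS), among them the feedback inhibitor *Socs3* at -0.53 ± 0.06. Of 22 genes of FGF signalling and its feedback, 2 rose and 3 fell (0 in limma without clone 1 or pre-iPS, with 5 and 7 at an unadjusted p under 0.05), with the receptor gene *Fgfr3* at -0.90 ± 0.18.

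Single genes of DNA methylation, imprinting and the germline changed, against 7.63% of all genes called lower and 3.31% called higher. *Dnmt3l*, the cofactor of de novo methylation, went from 9247, 6862 and 5937 to 3587, 1662 and 3308 in the iPS lines, and from 29.6 to 17.3 in pre-iPS, a log2 fold change of -1.25 ± 0.20. With *Gadd45b* (-0.78 ± 0.13) it was 1 of 2 of 17 genes of the methylation machinery that fell, and 0 rose. Of 37 imprinted genes 4 were lower and 2 higher, and without clone 1 or without pre-iPS 2 were lower and 1 higher. The growth factor gene *Igf2* fell from 3813, 2347, 2806 and 901 to 1854, 1190, 832 and 321, and its neighbour *H19* from 36142, 20644, 17367 and 4892 to 21798, 10481, 9439 and 3050, with log2 fold changes of -1.31 ± 0.13 and -0.82 ± 0.06. Both are abundant in MEF, *Igf2* at 137012 and 137153 and *H19* at 246379 and 246012. *Igf2r*, the receptor gene that clears the ligand, rose by 0.47 ± 0.04, at 0.43 to 0.50 in the 4 lines and without overlap. *Peg10* fell by 1.04 and *Dio3* by 1.59, the latter from values of at most 57.0. *Nap1l5*, which did not meet the rule for the 15 largest rises, rose by 1.20. Of 30 germline genes 4 fell and 0 rose, and 1 fell without clone 1 or without pre-iPS. *Dazl*, an RNA-binding protein gene of germ cells, went from 2133, 851 and 1440 to 657, 204 and 668 in the iPS lines and was at 3.06 and 0.957 in pre-iPS. *Rhox6*, *Piwil2* and *Tex19.1* fell by 0.94, 0.46 and 0.39.

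Among the metabolic and stress lists the rises were modest. Of 32 genes of the amino acid response, 8 were higher and 1 lower. For this list and those that follow, the shares over all genes tested were 3.31% higher and 7.63% lower. *Slc7a11*, the cystine importer, rose by 0.84 ± 0.12, *Aldh1l2* by 0.62 ± 0.13 and *Psat1*, an enzyme of serine synthesis, by 0.40 ± 0.06. *Ddit4*, which is also a hypoxia-induced inhibitor of mTORC1, was the member that fell, from 16893, 17341, 18540 and 12347 to 7346, 11142, 11073 and 7967. The number called higher was 6 without the control line, 0 without clone 1 (15 of 32 members at an unadjusted p under 0.05), 3 without clone 2 and 1 without pre-iPS, while the median of 0.14 was 0.13 to 0.14 in these fits. By edgeR over the 4 lines 9 were called higher. Of 25 cholesterol synthesis genes 4 were higher and 0 lower, but 0 were called in limma without clone 1 or without pre-iPS, with 6 at an unadjusted p under 0.05 in both, and 2 were called without clone 2. The 4 were *Lss* (0.59 ± 0.13), *Acat2* (0.56 ± 0.11), *Idi1* (0.38 ± 0.10) and *Dhcr7* (0.33 ± 0.08). The list median was 0.40 in pre-iPS and -0.04 in the control line. Of 29 p53 targets and cell cycle inhibitors 4 fell and 1 rose (2 and 0 without clone 1), with the inhibitor gene *Cdkn1a* at -0.40 ± 0.07. Of 17 metallothionein and oxidative stress genes 3 rose and 1 fell, and of 15 telomere genes 2 rose and 0 fell. Without clone 1, limma called 0 in both lists, with 8 and 2 members at an unadjusted p under 0.05.

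The genes of Netrin-1 signalling, the subject of the study, gave 2 rises and 2 falls among 15 (3.31 and 7.63% of all genes). Without clone 1 there were 0 rises and 1 fall. *Ntn1* itself was at 3727, 5159, 6601 and 11258 at passage 5 and at 5175, 6205, 4473 and 12274 at passage 25, a log2 fold change of 0.08 ± 0.15 (limma adjusted p = 0.77), and pre-iPS was highest at both passages. The receptor gene *Unc5b* fell by 0.52 ± 0.06, and *Ntn4*, another netrin, fell by 0.62. *Dscam* rose by 1.03, from values of 18.8 to 76.5, and *Mcam* by 0.37 ± 0.05. *Unc5c* was at 0.94 (limma adjusted p = 0.085), and it went from 84.7 to 333 in pre-iPS.

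**Figure D4:**
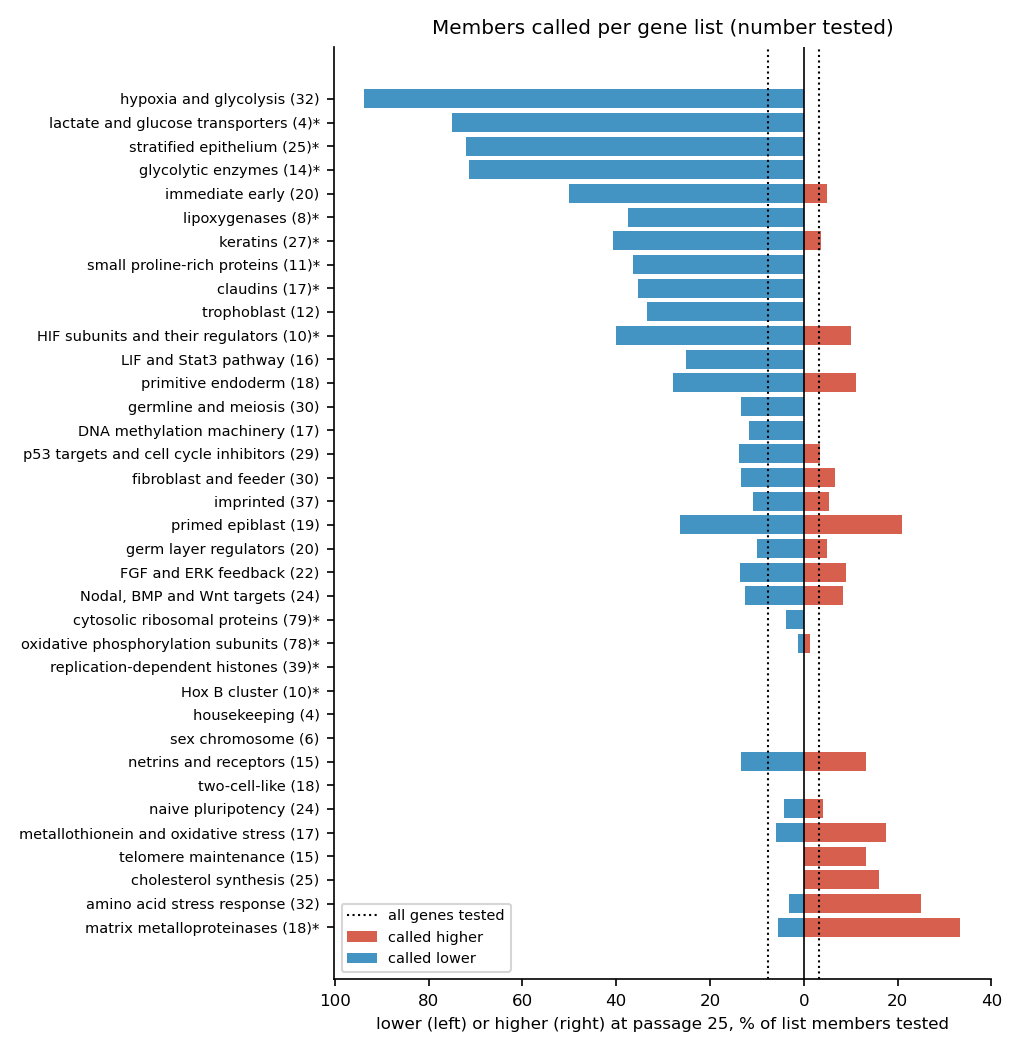
Share of the members of each gene list called lower (left) or higher (right) at passage 25, in percent of the members tested, whose number stands in brackets. The dotted lines are the shares over all genes tested, 7.63% lower and 3.31% higher. All lists were chosen with earlier results of these data known, and those marked with an asterisk were added after their values had been seen. The hypoxia and glycolysis list has the longest bar, with 30 of 32 members lower.

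Several lists gave no or few calls. Limma called none of 4 housekeeping genes and none of 6 sex chromosome genes, with 0 at an unadjusted p under 0.05 in both, and edgeR and DESeq2 called 0. The lines themselves differed in the 6 sex chromosome genes. These are *Xist* and *Tsix* of the X chromosome and *Ddx3y*, *Kdm5d*, *Eif2s3y* and *Uty* of the Y chromosome, so a single median mixes genes of both kinds. At passage 5 the median log2(value + 1) of these genes was 10.1 and 9.81 in the control line and clone 1. It was 2.31 and 2.32 in clone 2 and pre-iPS. At passage 25 the medians were 9.88, 9.79, 1.96 and 1.54 in the same order. The summed values ran the other way. They were 7078, 5565, 21997 and 16047 at passage 5 and 5934, 5182, 20068 and 22094 at passage 25, in that order. Any link to the passage changes of the lines was not tested. No gene of 39 replication-dependent histones was called in limma, edgeR or DESeq2, with 6 at an unadjusted p under 0.05 in limma. Of 79 cytosolic ribosomal protein genes 3 were called lower (7.63% of all genes), at a median of -0.09. In 18 of them all passage 25 values lay below all passage 5 values (4.02% of all genes), and 74, 57, 38 and 71 were lower in the control line, clone 1, clone 2 and pre-iPS. Without the control line, clone 1 or pre-iPS limma called 0 of the 79, with 14, 11 and 9 at an unadjusted p under 0.05. The 13 genes encoded in the mitochondrial genome were not analysed here.

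Beside these shared changes, some gene sets moved in different directions in the lines. Over all 17075 genes the passage changes of any 2 lines were positively correlated, with Pearson's r of 0.24 to 0.50 across genes, which are not independent replicates. The lowest value was between the control line and clone 2 and the highest between the control line and clone 1. The values that follow are descriptions of 1 pair of libraries each, for sets noted because the lines differed or listed for pluripotency. A set of 148 genes was taken with a mean value of at least 200 over the 6 iPS libraries and a log2(value + 1) at least 4 above the pre-iPS mean. Their median change was -0.49 in the control line and -0.50 in clone 1, and 0.63 in clone 2. There, 85.8% of them were higher at passage 25, against 9.46% in the control line and 12.8% in clone 1. Over all genes tested the share that was higher was 45.8 to 48.7% in the 4 lines. The naive markers had medians of -0.63, -0.53 and 0.31 in the control line, clone 1 and clone 2. The 18 genes of the 2-cell-like state, a rare totipotent-like condition, had -0.53, -0.37 and 0.50, and the 30 germline genes -0.69, -0.73 and 0.13. *Esrrb*, a core factor of naive pluripotency, went from 2946 to 1626 in the control line, from 1617 to 900 in clone 1 and from 5094 to 7387 in clone 2. *Klf2* went from 3263 to 5105 in clone 2 and was lower at passage 25 in the other 3 lines. *Dppa3*, a gene of the inner cell mass and germ cells, went from 1646 to 894 in the control line, from 932 to 436 in clone 1 and from 1121 to 1565 in clone 2. *Mael*, a germline transposon defence gene, went from 325 to 666 in clone 2, from 1063 to 617 in the control line and from 614 to 358 in clone 1. *Zscan4d*, of the 2-cell-like list, went from 1150 to 1490 in clone 2, and from 8156 to 6004 and from 3096 to 2398 in the control line and clone 1. No 2-cell-like gene was called over the 4 lines in limma, edgeR or DESeq2 (1 of 18 at an unadjusted p under 0.05 in limma, 2 in edgeR), and without clone 2 limma called 4 of 18 lower. When the passage change of clone 2 was tested against that of the other 3 lines, 0 genes were called in limma, with 1615 at an unadjusted p under 0.05. The same test gave 0 calls for the control line (1321), clone 1 (201) and pre-iPS (568).

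**Figure D5:**
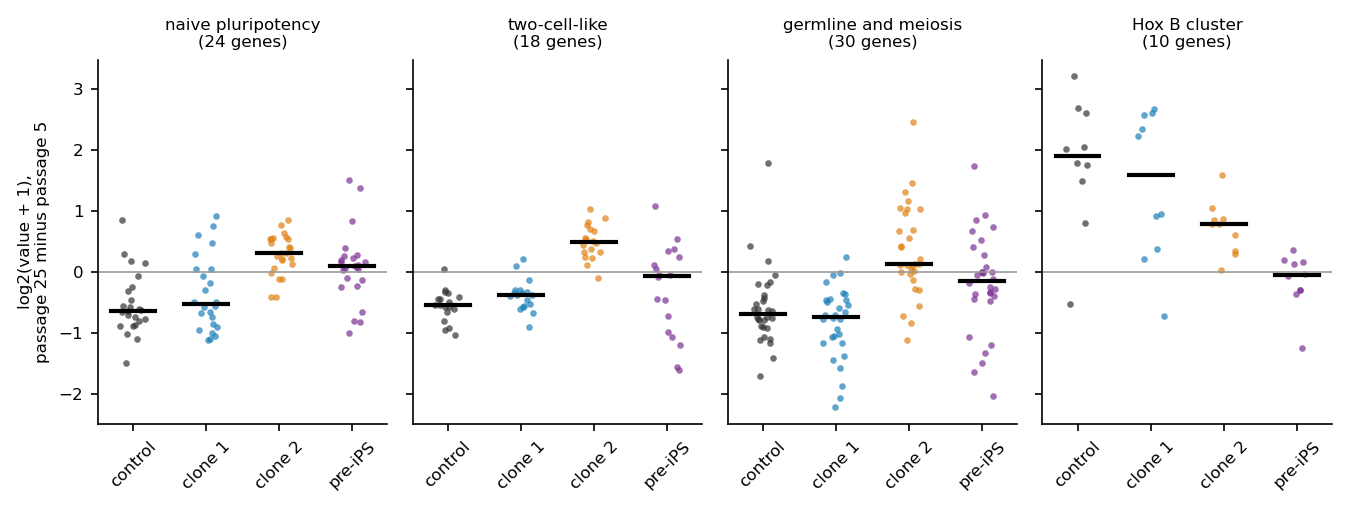
Change between passages of each gene of 4 lists in each line. The vertical axis is log2(value + 1) at passage 25 minus passage 5, points are genes, and bars are medians. The medians of the naive, 2-cell-like and germline lists lie below 0 in the control line and clone 1 and above 0 in clone 2, and the *Hox* B genes are higher in the 3 iPS lines and near 0 in pre-iPS.

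The *Hox* B cluster, whose genes pattern the body axis, was listed after it had appeared among the genes of single lines. The medians of its 10 genes were 1.90 in the control line, 1.59 in clone 1, 0.79 in clone 2 and -0.04 in pre-iPS. *Hoxb1* went from 495, 87.9 and 59.5 to 2014, 453 and 181 in the iPS lines, and *Hoxb2* from 335, 85.2 and 105 to 1382, 509 and 193. In pre-iPS they went from 8.16 to 2.88 and from 300 to 234. No gene of the cluster was called over the 4 lines in limma, with 6 of 10 at an unadjusted p under 0.05, while edgeR called 2 and DESeq2 5 higher. In the 3 iPS lines 3 of the 10 were called higher in limma (0.615% of all genes), *Hoxb1* among them with a log2 fold change of 1.99.

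Single lines also had large changes of their own. In the control line 477 genes were higher and 484 lower by at least 2-fold (2.79 and 2.83% of genes tested), in clone 1 410 and 688 (2.4 and 4.03%), in clone 2 750 and 548 (4.39 and 3.21%), and in pre-iPS 406 and 708 (2.38 and 4.15%). *Lcn2*, an iron-carrier gene of epithelia, went from 111 to 18.8 in the control line and from 127 to 26.9 in clone 2, and stayed under 10 in the other lines. *Khdc3*, a gene of oocytes and early embryos, went from 273 to 34.9 in clone 1 and from 487 to 403 in clone 2. *Cplx1*, a synaptic vesicle gene, went from 18.8 to 145 in clone 2. *Gpnmb*, a glycoprotein gene of lysosome-rich cells, went from 3027 to 285 in pre-iPS, where the iPS lines had 105 to 200 at both passages and MEF 3008 at passage 2. The 417 genes that were high in MEF and low in the iPS lines had a median change of 0.36 in the control line, where 71.7% were higher, and of -0.10, -0.11 and 0 in clone 1, clone 2 and pre-iPS.

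The distance between the passages of a line, on log2(value + 1) over all genes tested, was 66.6 ± 3.54 (SD, n = 4 lines). The distance between clones 1 and 2 was 71.1 at passage 5 and 90.0 at passage 25, and that between clone 2 and pre-iPS was 152.3 and 173.6. Between the control line and clone 1 it was 79.1 and 75.1. Of the 6 pairs of lines, 3 were closer at passage 25. By autosome the changes were small. The median change of autosomal genes with a mean value of at least 50 lay between -0.08 and 0.08 for every autosome and line, and the largest departure from the line's own median was 0.11, for chromosome 8 in clone 2. For the X chromosome the medians were -0.05, -0.02, 0.02 and 0.06 in the control line, clone 1, clone 2 and pre-iPS. Those of only 7 genes of the Y chromosome were -0.43, -0.27, 0.14 and 0 in the same order.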

How the data were processed

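Poly(A) RNA was read as 50-base single reads on an Illumina HiSeq 2000. The submitters' processing notes name CASAVA 1.8.2, FastQC, TopHat2 2.0.8b, HTSeq 0.5.3p9 and edgeR, with the mouse build mm10. The annotation and the strand setting are not given in the sources used here. The authors deposited 1 table of 18901 genes and 10 libraries, whose signal values are counts that edgeR had equalized to a shared library size. Each value in the 8 libraries was traced back to a whole number of reads (100% whole within 0.1 read). Genes with near-identical copies (keratins, *Mmp1a*, *Zscan4d*, histones, ribosomal proteins) and overlapping or antisense genes are uncertain.

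The main test was limma 3.58.1 (R 4.3.3, lmFit and eBayes with trend) on log2(value + 1), with line and passage as terms, over the 8 libraries and 17075 genes. Benjamini-Hochberg adjustment was over all genes tested. The label of each library names its line, so the line served as the replicate block that pairs the passages. Deviations from the passage mean correlated at 0.65 to 0.92 between the passages of a line. No set test was run. The test was tried on simulated data beforehand. edgeR 4.0.16 and DESeq2 1.42.0 were run on the recovered reads as alternatives, and others are named in the closing section. The fit of each line's change against that of the other lines was added after the values were seen.

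Named genes were the 15 largest rises and falls among the genes called that moved 1 way in all 4 lines with a mean value of at least 50, up to 4 called members of each of 24 gene lists with some that were not called, and the largest changes of single lines. The members and lists were chosen with earlier results of these data known, and 13 more lists, with the genes named from them, were chosen after their values were seen. Gene positions are from GENCODE M21 (GRCm38), which located 17637 genes by symbol, with 1182 more through RefSeq names. Promoter sequences are from RefSeq.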

Additional observations from a re-analysis of the deposited data

Results flagged for a closer look

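The 4 within-line changes of 142 genes named here were searched for 1 line far from the others, which chance gives in about 1 group in 20, or 7.1 of these genes, and 8 genes were found, a number close to that. *Gpnmb* was named for its fall in pre-iPS, and *Mael* after its values in the lines were seen. Clone 2 was farthest from the others for *Esrrb*, with a log2 change of 0.54 where the other lines had -0.996 to -0.844, for *Mael*, with 1.03 against -0.78 to -0.48, and for *Zscan4d*, with 0.37 against -0.45 to -0.37. Pre-iPS was farthest for *Gpnmb*, with -3.40 against -0.09 to 0.58, for *Nr0b1*, with 1.38 against 0.85 to 0.92, and for *Psat1*, with 0.59 against 0.32 to 0.36. The following differences were small. *Mmp10* rose by 1.06 in the control line against 1.21 to 1.23, and *Pgam1* was at -0.34 in pre-iPS against -0.32 in each of the other lines. Each change rests on 1 library per passage.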

How the results depend on the processing

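Over the 4 lines the number of genes called was 1869, and it lay within 1.5 times of this with a pseudocount of 5 or 0.5, without a filter, with a mean value of at least 50, after quantile normalization, by edgeR and by DESeq2. By direction, 928 genes were higher after quantile normalization and 996 by DESeq2, against 566. Without the replicate block, 8 genes were called, 1 higher and 7 lower, 6 of them by 2-fold. With eBayes run without a trend and robustly, 303 genes were called, 73 higher and 230 lower, 126 of them by 2-fold. Leaving out 1 line gave 242 to 1723 genes, 27 to 531 higher and 215 to 1192 lower, with 97 to 294 by 2-fold, the lowest without clone 1 each time. These fits have fewer libraries, and what else sets the difference was not tested. In the 3 iPS lines 166 genes were higher with a mean value of at least 50 and 174 by edgeR, against 105. The mean distance within a line was 48.2 with a mean value of at least 50, which leaves out genes, and 56.1 with a pseudocount of 5. The difference between pre-iPS and iPS gave 0 calls in each of its 3 alternatives. The median log2 fold change over all genes was -0.01 as deposited, 0.02 after quantile normalization and 0.01 by edgeR.

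Of 1837 values of 142 named genes under 13 alternatives, 1472 kept direction and side of the threshold, 344 were no longer called, 113 of these without the replicate block, 18 became called and 3 reversed. *Eno1* ranged from -0.12 to 0.0020 when 1 line was left out, *Ntn1* from -0.057 to 0.29 and *Gpnmb* from -1.11 to 0.22. Each library had at least 38110410 reads on genes, and the number of lines, 4, limits the precision.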
